A study of Mus musculus with 8 samples.

Results

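Endoplasmic reticulum (ER) stress genes were read in retinas of mice that had received saline or the neurotoxin MPTP. The 10 genes described here mark the unfolded protein response and were taken from a list, each by its symbol in the array annotation and, where a gene has more than 1 probe set, by the probe set with the highest mean. All 10 were measured, each by 1 probe set, among 19938 genes on the arrays. MPTP is converted to MPP+, which enters cells through the dopamine transporter and blocks complex I of mitochondrial respiration. Mice were male C57BL/6, 6 weeks old at the start, with 6 mice in each of 4 groups: saline for 1 week (7 days), MPTP for 1 week, saline for 4 weeks (28 days) and MPTP for 4 weeks. Each group has 2 arrays, and each array holds RNA pooled from 4 retinas. Whether different mice gave the pools of a group is not stated in the labels, so the p-values measure only the spread between these arrays, which may be technical.

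The unfolded protein response adjusts the folding capacity of the ER to the load of unfolded protein, and photoreceptors, which make large amounts of membrane protein, depend on it. It has 3 arms, each started by a sensor in the ER membrane. PERK, encoded by Eif2ak3, phosphorylates eIF2alpha, which slows translation but favours translation of the transcription factor ATF4, whose targets include Ddit3 (CHOP) and Trib3. IRE1, encoded by Ern1, splices the mRNA of Xbp1 into the form that encodes an active transcription factor. ATF6 is cleaved in the Golgi, and its released part turns on chaperone genes such as Hspa5 (BiP) and Hsp90b1 (GRP94) through ER stress response elements. ATF6 and XBP1 share targets, so the grouping of Herpud1 and Sdf2l1 with ATF6 below is a convention. Neither phosphorylation of eIF2alpha nor splicing of Xbp1 nor cleavage of ATF6 is read by a gene-level array signal.

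The elements through which this response acts can be seen in the promoters of 3 chaperone and degradation genes, shown because each holds a match to an ER stress response element. The promoter of Sdf2l1, also read for the ATF6 arm, had no match to any motif searched and is not shown. The sequences are the 300 bases from 250 before to 50 after the transcription start in RefSeq (GRCm38.p6), written 5′ to 3′ on the strand of the gene, with matches in capitals. They lie at chr2:34771840-34772139 (plus strand) for Hspa5, chr10:86705395-86705694 (minus strand) for Hsp90b1 and chr8:94386179-94386478 (plus strand) for Herpud1.
Hspa5: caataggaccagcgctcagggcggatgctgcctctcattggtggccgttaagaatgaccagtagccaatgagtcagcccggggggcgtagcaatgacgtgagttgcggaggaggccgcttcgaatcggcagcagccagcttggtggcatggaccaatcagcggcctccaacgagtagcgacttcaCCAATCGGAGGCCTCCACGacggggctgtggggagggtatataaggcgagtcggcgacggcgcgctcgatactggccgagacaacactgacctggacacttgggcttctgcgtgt
Hsp90b1: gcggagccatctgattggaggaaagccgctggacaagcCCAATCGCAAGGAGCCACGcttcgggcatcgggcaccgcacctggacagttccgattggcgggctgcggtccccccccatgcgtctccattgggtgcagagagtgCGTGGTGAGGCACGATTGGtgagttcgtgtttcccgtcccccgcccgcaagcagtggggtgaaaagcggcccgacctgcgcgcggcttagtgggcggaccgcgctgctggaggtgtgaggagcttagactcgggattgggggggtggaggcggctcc
Herpud1: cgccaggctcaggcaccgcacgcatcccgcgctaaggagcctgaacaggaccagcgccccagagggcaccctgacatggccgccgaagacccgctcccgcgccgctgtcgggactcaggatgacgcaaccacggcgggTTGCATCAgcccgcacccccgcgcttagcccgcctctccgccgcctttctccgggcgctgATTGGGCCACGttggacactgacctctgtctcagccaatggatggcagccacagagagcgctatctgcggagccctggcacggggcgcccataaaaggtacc

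Each motif was searched as exact letters on both strands. The ER stress response element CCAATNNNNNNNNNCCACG occurred in 39 of 32851 promoters of this length (0.119%), and in 2 of the 9 promoters found for the 10 genes. Counted from the start base, Hspa5 holds it at positions -65 to -47, and Hsp90b1 at -212 to -194 and, on the reverse strand, at -107 to -89. The second form of the element, ATTGGNCCACG, occurred in 12 promoters (0.0365%), among them that of Herpud1, at positions -52 to -42. The core TGACGTGG of the element bound by XBP1 and ATF6 occurred in 222 promoters (0.676%) and in none of these 9. The core TGATGNAA of the amino acid response element, bound by ATF4 with its partners, occurred in 1304 promoters (3.97%), including Trib3 (positions 14 to 21, reverse strand) and Herpud1 (-112 to -105, reverse strand). The last of these is the shorter run of capitals in the Herpud1 promoter above. A match describes letters and shows neither binding nor a cause of any value below.

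The tissue read as retina. Of 24 retina marker genes 22 were measured, 21 of them above the median of all genes, with the rod genes Gnat1 and Sag near the top. The first principal component took 38.3% of the variance and set array 2 of saline at 1 week and array 1 of MPTP at 1 week (scores 15.7 and 19.1) apart from the other 6 arrays (-9.39 to -0.39). Those arrays also had a wider distribution of signal, with an interquartile range over genes of 1.90 and 1.92 against 1.65 to 1.74. One lies in each 1-week group, so the effect of each of the 10 genes at 1 week is also given without both. Effects of other genes at 1 week are given with all arrays only. The mean signal of 10 lens genes was 8.17 in array 2 of MPTP at 1 week and 7.13 to 7.80 in the others, and that of 10 pigment epithelium and choroid genes was 7.76 there and 7.09 to 7.52 elsewhere. Each mean rests on part of its list. Over the 8 arrays Cryba1 (8.41 to 11.15) and Crygs (7.05 to 9.71) varied widely, but Mip (6.48 to 6.78) and Lim2 (6.46 to 6.75) little. Likewise Rpe65 (7.49 to 9.11) varied more than Pmel (6.49 to 6.78). The tissue behind these signals was not tested.

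None of the 10 genes changed with MPTP at 1 week, at 4 weeks or over both times at an adjusted p under 0.05 (limma with Benjamini-Hochberg adjustment over all 19938 genes), and neither did any other gene. The percent of all genes called was 0 in each of these comparisons. At an unadjusted limma p under 0.05, none of the 10 genes was reached in any of them, where 4.22% of all genes were at 1 week, 1.91% at 4 weeks and 4.76% over both times. Signals below are log2 values after robust multi-array averaging (RMA), and effects are log2 fold changes, MPTP minus saline, with their standard error. In whole retina, fewer cells of a type and less RNA per cell cannot be told apart.

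**Figure D1:**
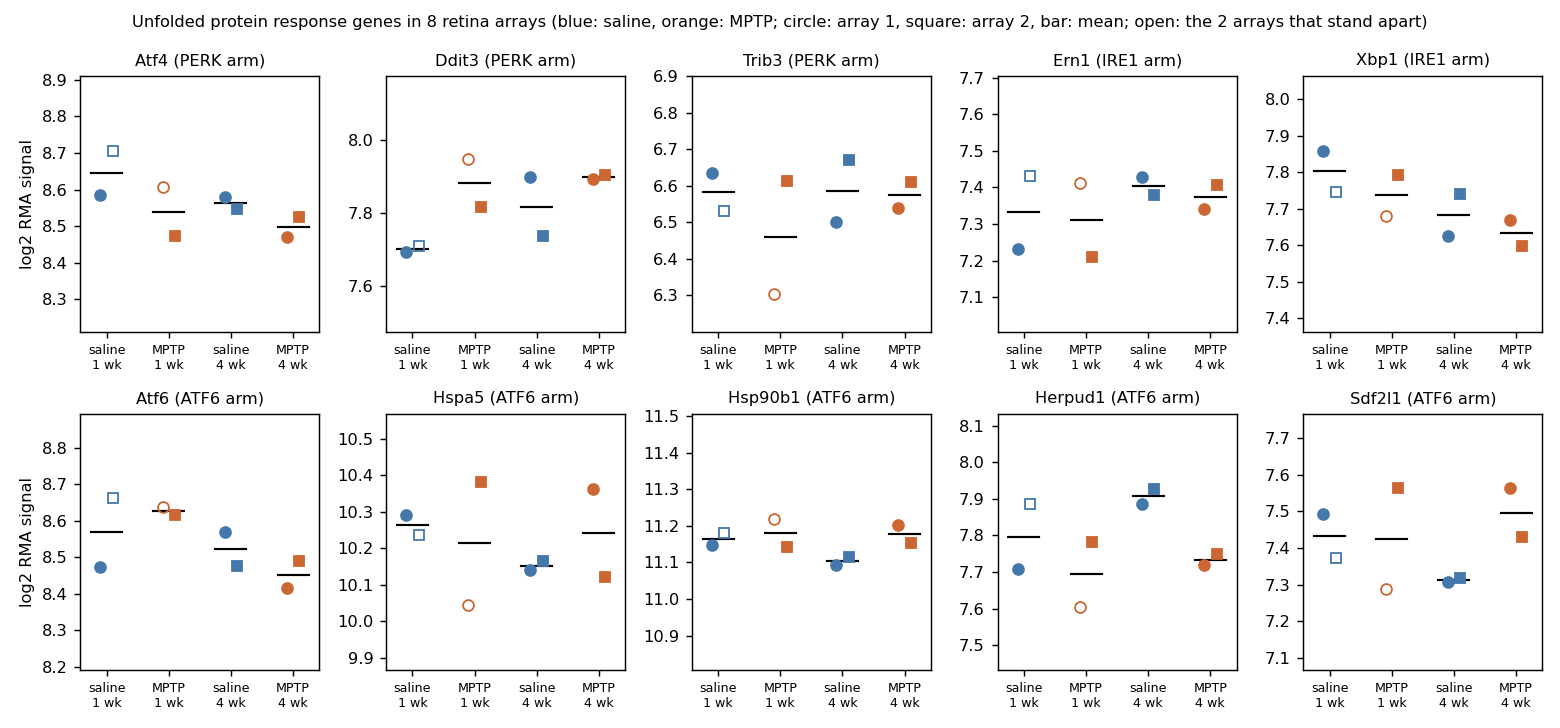
Each panel plots 1 gene's log2 RMA signal in the 8 arrays by group (blue, saline; orange, MPTP; circle, array 1; square, array 2; bar, mean of the 2 arrays; open symbols, the 2 arrays that stand apart), with the same span on every vertical axis, which does not start at 0. Arrays of a group often lie as far apart as the group means do, as for Hspa5 in MPTP at 1 week (10.04 and 10.38).

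The PERK arm was read through Atf4, Ddit3 and Trib3. Atf4, the transcription factor of this arm, is controlled mainly at translation, so its mRNA need not follow its protein. Its signal (probe set 10425364) was 8.58 and 8.71 in saline and 8.61 and 8.47 in MPTP at 1 week, and 8.58 and 8.55 in saline against 8.47 and 8.52 in MPTP at 4 weeks. The groups overlapped at 1 week and lay apart, with MPTP lower, at 4 weeks. The effect of MPTP was -0.11 ± 0.09 at 1 week (95% interval -0.31 to 0.10), -0.07 ± 0.09 at 4 weeks (-0.27 to 0.14) and -0.09 ± 0.06 over both times (-0.22 to 0.05). The 1-week value was also -0.11 without the 2 arrays that stand apart.

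Ddit3 encodes CHOP, the transcription factor through which lasting ER stress promotes cell death. Probe set 10366881 gave 7.69 and 7.71 in saline and 7.95 and 7.82 in MPTP at 1 week, and 7.90 and 7.74 in saline against 7.89 and 7.90 in MPTP at 4 weeks. Both MPTP arrays were above both saline arrays at 1 week, while at 4 weeks array 1 of saline read as high as the MPTP arrays. The effect was 0.18 ± 0.09 at 1 week (95% interval -0.03 to 0.39) and 0.08 ± 0.09 at 4 weeks (-0.13 to 0.29). Over both times it was 0.13 ± 0.06 (-0.01 to 0.27), with an unadjusted limma p of 0.0658 and an adjusted p of 0.973. Leaving out the 2 arrays that stand apart gave 0.12 at 1 week and 0.09 over both times. The 4-week value was 1e-05 without array 2 of saline and 0.16 without array 1 of saline.

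Trib3, a pseudokinase induced by ATF4 and CHOP that feeds back on both, had an estimate below 0 at both times. Probe set 10488608 gave 6.64 and 6.53 in saline and 6.30 and 6.61 in MPTP at 1 week, and 6.50 and 6.67 in saline against 6.54 and 6.61 in MPTP at 4 weeks. The lowest of the 8 values came from array 1 of MPTP at 1 week, one of the 2 that stand apart. The effect was -0.12 ± 0.12 at 1 week (95% interval -0.39 to 0.14), and -0.02 without both arrays that stand apart. It was -0.01 ± 0.12 at 4 weeks (-0.27 to 0.25) and -0.07 ± 0.08 over both times (-0.24 to 0.11).

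The IRE1 arm was read through Ern1, its sensor, and Xbp1, its transcription factor. The probe set of Xbp1 reads the gene and does not separate the spliced from the unspliced mRNA here. Ern1 (probe set 10392183) gave 7.23 and 7.43 in saline and 7.41 and 7.21 in MPTP at 1 week, and 7.43 and 7.38 in saline against 7.34 and 7.41 in MPTP at 4 weeks. Its groups overlapped at both times. The effect was -0.02 ± 0.11 at 1 week (95% interval -0.26 to 0.22), -0.03 ± 0.11 at 4 weeks (-0.26 to 0.21) and -0.02 ± 0.07 over both times (-0.18 to 0.13). At 1 week it was -0.02 without the 2 arrays that stand apart, but 0.08 without either array 2 of saline or array 2 of MPTP.

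Xbp1 (probe set 10374035) gave 7.86 and 7.75 in saline and 7.68 and 7.79 in MPTP at 1 week, and 7.62 and 7.74 in saline against 7.67 and 7.60 in MPTP at 4 weeks. The groups again overlapped at both times. The effect was -0.07 ± 0.09 at 1 week (95% interval -0.28 to 0.14), -0.05 ± 0.09 at 4 weeks (-0.26 to 0.16) and -0.06 ± 0.06 over both times (-0.19 to 0.08). Leaving out both arrays that stand apart left the 1-week value at -0.07.

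The ATF6 arm was read through the sensor Atf6 and the targets Hspa5, Hsp90b1, Herpud1 and Sdf2l1. Atf6 (probe set 10359982) gave 8.47 and 8.66 in saline and 8.64 and 8.61 in MPTP at 1 week, and 8.57 and 8.48 in saline against 8.41 and 8.49 in MPTP at 4 weeks. Its groups overlapped at both times. The effect was 0.06 ± 0.10 at 1 week (95% interval -0.16 to 0.27), -0.07 ± 0.10 at 4 weeks (-0.28 to 0.14) and -0.0058 ± 0.07 over both times (-0.15 to 0.14). The 1-week value was 0.14 without the 2 arrays that stand apart.

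Hspa5 encodes BiP, the ER chaperone that holds the sensors inactive until unfolded protein draws it away, and its promoter carries the ER stress response element shown above. Its signal (probe set 10471586) was 10.29 and 10.24 in saline and 10.04 and 10.38 in MPTP at 1 week, and 10.14 and 10.17 in saline against 10.36 and 10.12 in MPTP at 4 weeks. The arrays of each MPTP group lay further apart (by 0.34 at 1 week and 0.24 at 4 weeks) than those of each saline group (0.05 and 0.03), and enclosed the saline values at both times. The effect was -0.05 ± 0.12 at 1 week (95% interval -0.33 to 0.23), 0.09 ± 0.12 at 4 weeks (-0.19 to 0.37) and 0.02 ± 0.09 over both times (-0.17 to 0.21). The 1-week value turned to 0.09 without the 2 arrays that stand apart.

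Hsp90b1 encodes GRP94, the HSP90 of the ER, and carries the same element in both orientations. Its signal (probe set 10371482) was 11.15 and 11.18 in saline and 11.22 and 11.14 in MPTP at 1 week, and 11.09 and 11.12 in saline against 11.20 and 11.15 in MPTP at 4 weeks. At 4 weeks both MPTP arrays were above both saline arrays. The effect was 0.02 ± 0.08 at 1 week (95% interval -0.17 to 0.21), 0.07 ± 0.08 at 4 weeks (-0.12 to 0.26) and 0.05 ± 0.06 over both times (-0.08 to 0.17). At 1 week it was -0.0047 without the 2 arrays that stand apart.

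Herpud1 encodes an ER membrane protein that helps degrade misfolded proteins. Probe set 10574087 gave 7.71 and 7.89 in saline and 7.60 and 7.78 in MPTP at 1 week, and 7.89 and 7.93 in saline against 7.72 and 7.75 in MPTP at 4 weeks. At 4 weeks both MPTP arrays were below both saline arrays. The effect was -0.10 ± 0.10 at 1 week (95% interval -0.33 to 0.12) and -0.17 ± 0.10 at 4 weeks (-0.40 to 0.05). Over both times it was -0.14 ± 0.07 (-0.29 to 0.01), with an unadjusted limma p of 0.0629, the smallest of the 10 genes, and an adjusted p of 0.973. Leaving out the 2 arrays that stand apart turned the 1-week value to 0.07 and gave -0.09 over both times.

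Sdf2l1 encodes an ER protein that works with BiP and its cochaperones. Its signal (probe set 10438098) was 7.49 and 7.37 in saline and 7.29 and 7.57 in MPTP at 1 week, and 7.31 and 7.32 in saline against 7.56 and 7.43 in MPTP at 4 weeks. At 4 weeks both MPTP arrays were above both saline arrays, and at 1 week the MPTP arrays enclosed the saline ones. The effect was -0.0071 ± 0.11 at 1 week (95% interval -0.25 to 0.24), 0.18 ± 0.11 at 4 weeks (-0.06 to 0.43) and 0.09 ± 0.08 over both times (-0.09 to 0.26). The values without the 2 arrays that stand apart were 0.07 at 1 week and 0.15 over both times.

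**Figure D2:**
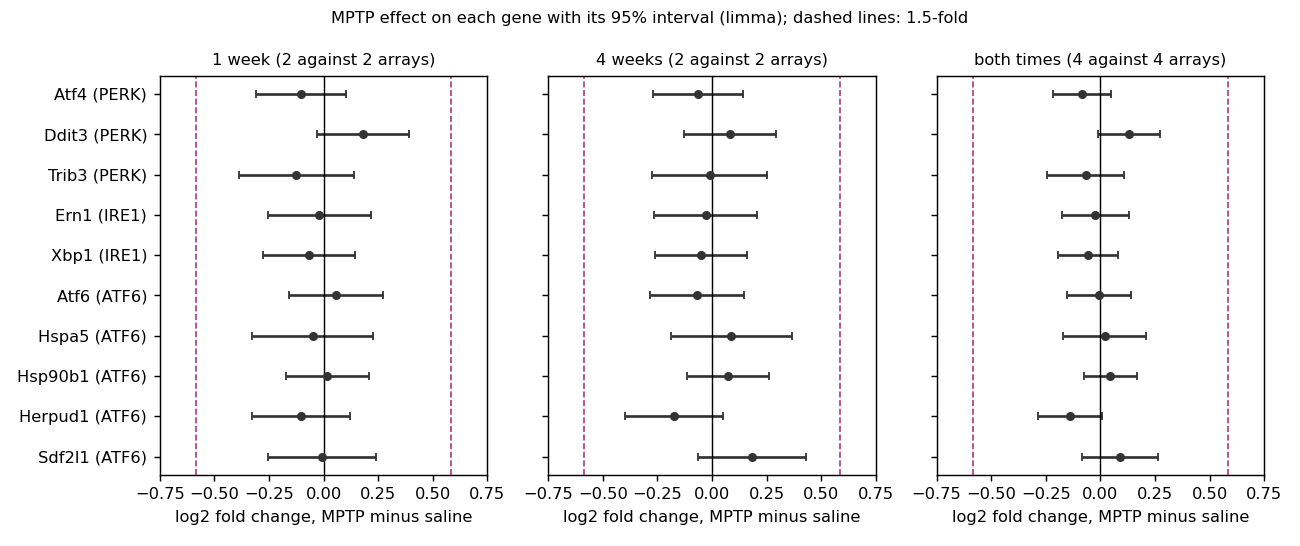
Points are log2 fold changes, MPTP minus saline, and bars their 95% intervals from limma for each gene at 1 week, at 4 weeks and over both times; dashed lines mark 1.5-fold in either direction. Every bar crosses 0 and stays between the dashed lines.

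The intervals bound what these arrays allow. At 1 week those of the 10 genes ran from 0.764-fold to 1.31-fold, at 4 weeks from 0.760-fold to 1.35-fold and over both times from 0.821-fold to 1.21-fold, so that a change of 1.5-fold in array signal lay outside each gene's own 95% interval. The same held under each alternative processing (for 9 genes where dim genes, Trib3 among them, were left out) and with any array left out, where the widest bounds at a single time were 0.683-fold and 1.48-fold. This is not particular to these genes, since 96.3% of all genes had such an interval at 1 week and 97.5% at 4 weeks. The intervals are per gene, were not adjusted for the number of genes, and refer to array signal, which can understate a change in transcript number.

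Counted without a test, 3 of the 10 genes had a log2 fold change above 0 at 1 week, and their median was -0.035 where the median of all genes was -0.0081. At 4 weeks 4 of the 10 lay above 0, and the medians were -0.020 for these genes and 0.0043 for all genes. Over both times 4 of the 10 again lay above 0, with medians of -0.015 and -0.0017. Groups did not overlap for 1 of the 10 genes at 1 week (Ddit3), where 26.3% of all genes did not, and for 4 at 4 weeks (Hsp90b1 and Sdf2l1 higher, Atf4 and Herpud1 lower), where 35.3% did not. Over both times none of the 10 lay apart, against 2.5% of all genes. Read against those shares, the counts of the 10 genes are no result about them. At 1 week, 5 of the 10 lay above 0 once the 2 arrays that stand apart were left out, and the median was 0.034.

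Compared arm by arm, the 3 arms gave group means close to each gene's mean of the 8 arrays, on which the log2 signals were centred. The PERK arm averaged -0.0021 in saline and -0.02 in MPTP at 1 week, and 0.0096 and 0.01 at 4 weeks. The IRE1 arm averaged 0.03 and -0.01 at 1 week, and 0.0084 and -0.03 at 4 weeks, and is the one arm whose members (2 genes) were both lower with MPTP at both times. The ATF6 arm averaged 0.02 and 0.0046 at 1 week, and -0.02 and -0.0028 at 4 weeks. Within the other 2 arms the genes did not share a direction: in the PERK arm Ddit3 was higher with MPTP and Atf4 and Trib3 lower at both times, and in the ATF6 arm 2 of 5 genes were higher at 1 week and 3 of 5 at 4 weeks.

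**Figure D3:**
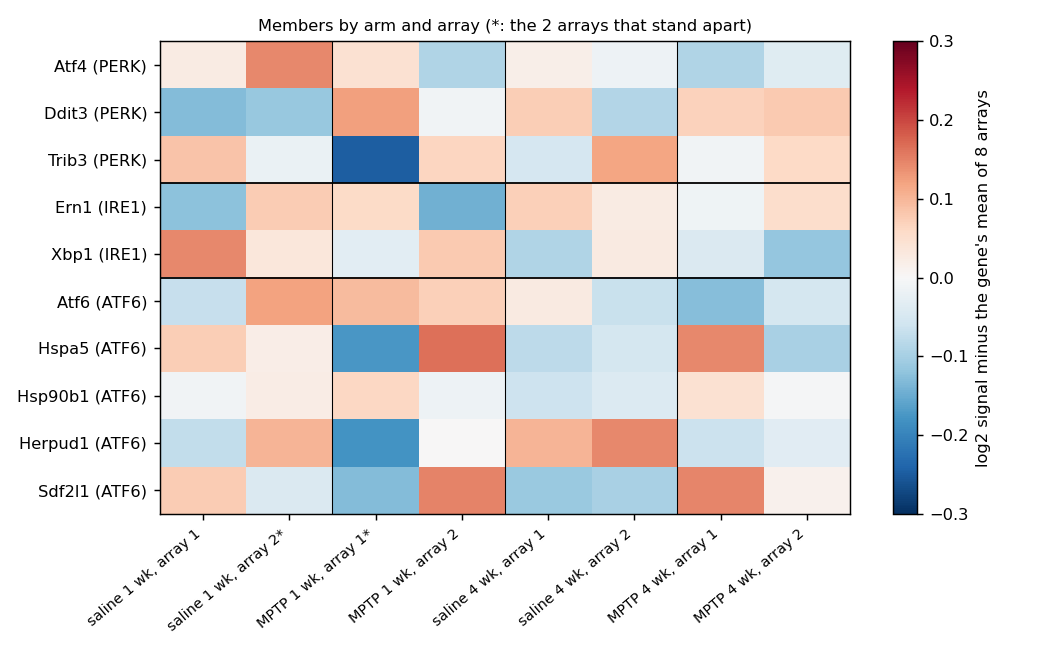
Colour gives each gene's log2 signal minus its mean of the 8 arrays (red, higher; blue, lower), with genes in rows by arm and arrays in columns by group; asterisks mark the 2 arrays that stand apart. No block of colour follows an arm within a group, and the darkest cell is Trib3 in array 1 of MPTP at 1 week (6.30).

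The difference of the MPTP effects between 4 weeks and 1 week was also tested for each gene. None of the 10 passed, as none of all genes did (percent called 0), and none reached an unadjusted limma p under 0.05, against 1.96% of all genes. The differences with the greatest size were 0.19 ± 0.16 for Sdf2l1, 0.14 ± 0.18 for Hspa5 and -0.13 ± 0.14 for Atf6. Without the 2 arrays that stand apart they were 0.11 for Sdf2l1, -0.0024 for Hspa5 and -0.21 for Atf6. For Hspa5 the difference was -0.03 without array 1 of MPTP at 1 week alone and 0.02 without array 1 of MPTP at 4 weeks alone, so its value rests on these MPTP arrays. It was 0.17 without array 2 of saline at 1 week and 0.31 without array 2 of MPTP at 1 week.

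Hspa5 and Sdf2l1 moved together from array to array. Over the 8 arrays Pearson's r was 0.892 (exact two-sided permutation p = 0.00523) and Spearman's rho 0.857 (exact permutation p = 0.0107). Adjusted over the 45 pairs among the 10 genes, the exact permutation p for r was 0.235, so the pair did not pass, nor did any other. It was singled out after the values were seen. Without the 2 arrays that stand apart r was 0.886, and without the 2 arrays farthest from the median of Hspa5 (array 2 of MPTP at 1 week and array 1 of MPTP at 4 weeks) it was 0.707. Both genes were highest in array 2 of MPTP at 1 week, the array with the highest lens and pigment epithelium signals given above. They were nearly as high in array 1 of MPTP at 4 weeks, where the lens mean was 7.54 and the pigment epithelium mean 7.49. Both were lowest in array 1 of MPTP at 1 week, where these means were also lowest (7.13 and 7.09). Array 2 of saline at 4 weeks had the next highest lens mean, 7.80, with Hspa5 at 10.17 and Sdf2l1 at 7.32. The part of the lens and pigment epithelium signals in this relation was not tested. Ddit3 and Xbp1, from the PERK and IRE1 arms, moved in opposite directions over the 8 arrays, with r at -0.796 (exact permutation p = 0.0228, 0.329 adjusted over the 45 pairs) and rho at -0.786 (exact permutation p = 0.0279). Their r was -0.887 without the 2 arrays that stand apart, and -0.670 without the 2 arrays farthest from the median of Ddit3 (both saline arrays at 1 week). Ern1 and Xbp1, both of the IRE1 arm, also had a negative r of -0.742 (exact permutation p = 0.0366, 0.329 adjusted over the 45 pairs) with a rho of -0.452 (exact permutation p = 0.267). Their r was -0.874 without the 2 arrays that stand apart, and -0.061 without the 2 arrays farthest from the median of Ern1 (array 1 of saline and array 2 of MPTP at 1 week), on which the relation rests. A raw exact permutation p under 0.05 for r was reached by 3 further pairs, Ern1 with Hspa5 (r -0.744), Ern1 with Sdf2l1 (-0.763) and Hsp90b1 with Herpud1 (-0.718). Without the 2 arrays farthest from the median of the gene named first, r was -0.627, -0.708 and -0.415 in the same order. The share of all gene pairs on the arrays that reach such a p was not counted, so the number of these pairs is no result about the 10 genes.

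**Figure D4:**
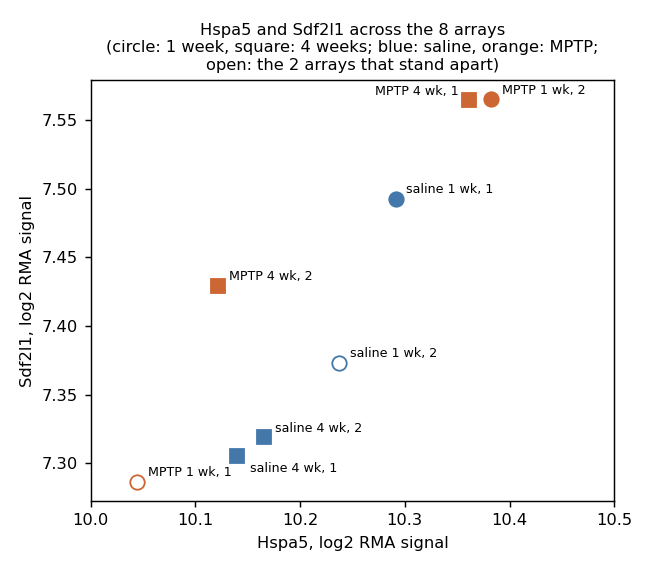
Each symbol is 1 array, with the log2 RMA signal of Hspa5 on the horizontal and of Sdf2l1 on the vertical axis (circle, 1 week; square, 4 weeks; blue, saline; orange, MPTP; open, the 2 arrays that stand apart). Array 2 of MPTP at 1 week and array 1 of MPTP at 4 weeks sit at the top right, and array 1 of MPTP at 1 week at the bottom left, so that the order along the line does not follow treatment.

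The genes whose signal was most like that of 3 members were ranked by Pearson's r over the 8 arrays among the 9968 other genes above the median signal, as a description. Most like Ddit3 were Fmn2 (r 0.978, and 0.974 without the 2 arrays that stand apart), Marf1 (0.969) and 3830406C13Rik (0.930). Most like Xbp1 were Fam210b (0.969, and 0.993 without them), Wdr3 (0.918) and Fam104a (0.907). Most like Hspa5 were the olfactory receptor gene Olfr71 (0.952, and 0.965), Sumf2 (0.946) and Nova2 (0.945). With 8 arrays and this many candidates, high values of r are found for many genes.

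The wider pathway was followed in 5 lists that together hold 91 measured genes, the 10 included. Some genes, such as Herpud1 and Mbtps1, are in more than 1 list, so the counts of the lists are not separate. None of the 91 passed the adjusted test at 1 week, at 4 weeks or over both times, as none of all genes did. Over both times the list of the PERK and ATF4 arm had 14 of 26 genes above 0 (median 0.02), that of IRE1 and XBP1 13 of 22 (0.02), that of ATF6 and protein folding 10 of 21 (-0.00052), that of ER-associated degradation 8 of 21 (-0.04), and that of the sensors and other eIF2alpha kinases 3 of 8 (-0.02). Of all genes 49.0% were above 0 over both times, with a median of -0.0017. At 4 weeks alone the genes above 0 numbered 16 of 26 (median 0.03), 10 of 22 (-0.01), 12 of 21 (0.01), 4 of 21 (-0.03) and 1 of 8 (-0.08) in the same order of lists, where 51.8% of all genes were above 0.

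Apart from Eif2ak3, the genes named next had the smallest unadjusted limma p of their list over both times or at 1 time, and none passed after adjustment. Cebpb, Ube2j2 and Ube2g2 among them are dim, with a mean signal at percentiles 32, 42 and 46 of all genes. In the PERK and ATF4 list, Cebpb, a transcription factor that pairs with CHOP and ATF4, had an effect over both times of 0.20 ± 0.09, and Atf3, a stress-induced target of ATF4, one of -0.17 ± 0.07. Asns, the ATF4 target for asparagine synthesis, was at 0.16 ± 0.11 at 4 weeks. Eif2ak3, the PERK sensor, is given for its place in the arm and read 7.32 and 7.59 in saline and 7.45 and 7.39 in MPTP at 1 week, and 7.54 and 7.39 in saline against 7.38 and 7.46 in MPTP at 4 weeks. Its groups overlapped at both times, with an effect of -0.04 ± 0.07 over both. Eif2ak1, the heme-regulated eIF2alpha kinase, read 7.98 and 7.91 in saline against 7.67 and 7.66 in MPTP at 4 weeks, a difference of -0.28 ± 0.09 with an unadjusted limma p of 0.00942. Its MPTP arrays were lower at both times, and the effect over both was -0.20 ± 0.06.

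Among the XBP1 targets, Dnajb9, a cochaperone of BiP, read 8.39 and 8.44 in saline and 8.76 and 8.55 in MPTP at 1 week, a difference of 0.25 ± 0.11, and -0.02 ± 0.11 at 4 weeks. Its value of 8.76 came from array 1 of MPTP at 1 week, which stands apart. The subunits of the translocon-associated complex with the smallest p over both times lay on opposite sides of 0, with Ssr2 at 0.14 ± 0.07 and Ssr3 at -0.13 ± 0.06. Srp19, of the signal recognition particle, was at 0.12 ± 0.10 at 4 weeks. In the folding list, Creld2, an ER stress-induced gene, read 8.16 and 8.11 in saline and 8.39 and 8.38 in MPTP at 1 week, a difference of 0.25 ± 0.08. At 4 weeks its difference was 0.02 ± 0.08, and the change in effect between the times, -0.22 ± 0.12, did not pass either. Pdia3, a disulfide isomerase for glycoproteins, was at 0.16 ± 0.07 over both times and Mbtps1, one of the proteases that cleave ATF6, at -0.16 ± 0.08. In the degradation list, Ube2g2, a ubiquitin-conjugating enzyme, was at -0.26 ± 0.08 at 1 week, while over both times Edem2, which trims mannose from misfolded glycoproteins, was at -0.18 ± 0.07 and Ube2j2, another such enzyme, at 0.15 ± 0.07. Selenos, part of the retrotranslocation complex, was at 0.20 ± 0.11 at 4 weeks.

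Time was the other factor of the design. Among the 10 genes none passed between 4 weeks and 1 week in saline or in MPTP, as none of all genes did (percent called 0), and none reached an unadjusted limma p under 0.05, against 2.13% of all genes in saline and 9.79% in MPTP. In saline 7 of the 10 had groups without overlap, against 27.7% of all genes: Ddit3 and Herpud1 were higher at 4 weeks, and Atf4, Xbp1, Hspa5, Hsp90b1 and Sdf2l1 lower. In MPTP, with other arrays, 2 had (Xbp1 and Atf6, both lower at 4 weeks), against 44.3%. Thus Xbp1 alone among the 10 lay apart, and lower at 4 weeks, in both treatments. Its nearest arrays were close, with 7.747 at 1 week against 7.740 at 4 weeks in saline, and 7.681 against 7.670 in MPTP. The share of all genes that lay apart in both treatments was not counted, so this is no result about Xbp1. Nor are the 7 genes in saline a result about the 10, which were all read on the same arrays. Among these arrays is array 2 at 1 week, which stands apart. In saline the greatest size of a difference among the 10 was 0.12, and the smallest unadjusted limma p was 0.230.

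A comparison of 4 weeks with 1 week over both treatments was added after the values were seen. None of the 10 genes passed it and none of all genes did (percent called 0), and none of the 10 reached an unadjusted limma p under 0.05, where 11.5% of all genes did. None of the 10 had groups without overlap, against 6.35% of all genes. The differences with the greatest size, 4 weeks minus 1 week, were -0.11 ± 0.06 for Xbp1 and -0.11 ± 0.07 for Atf6.

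No gene of the wider lists passed in that comparison, and the lists were not tested as sets. Of 21 genes for the ATF6 arm and folding, 19 were below 0, with a median of -0.07. In saline 17 of 21 were below 0, and in MPTP 17 of 21, where 9858 and 9307 of all 19938 genes were. These 2 comparisons share no array, but each holds 1 of the 2 arrays that stand apart, on its 1-week side. Genes of a list read on the same arrays are not replicates. The IRE1 and XBP1 list had 18 of 22 below 0 (median -0.07) and the degradation list 16 of 21 (-0.05). The sensors and other eIF2alpha kinases had 5 of 8 below 0, with the lowest list median (-0.08). The PERK and ATF4 list had 11 of 26 (0.0099) and all genes 9282 of 19938 (0.01). The 2 genes with the smallest unadjusted p in each of the first 2 lists were Pdia3 (-0.21 ± 0.07) and Pdia4 (-0.22 ± 0.07), disulfide isomerases, and Ssr2 (-0.25 ± 0.07) and Dnajc3 (-0.20 ± 0.06), a cochaperone of BiP, all with an adjusted limma p of 0.403. Pdia4 read 7.72, 7.95, 7.98 and 7.90 in the 4 arrays at 1 week and 7.71, 7.73, 7.61 and 7.62 at 4 weeks, so that 1 array at 1 week overlapped the later ones. All 21 folding genes lie in the brighter part of the array, and of the 9969 genes above the median signal 6779 were below 0 as well, with a median of -0.04. After quantile normalization 14 of 21 folding genes were below 0 (median -0.03) and 13 of 22 of the IRE1 and XBP1 list (-0.0097), and the median of the 10 members turned from -0.028 to 0.025. Without the 2 arrays that stand apart 17 of 21 folding genes were below 0, with a median of -0.07.

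**Figure D5:**
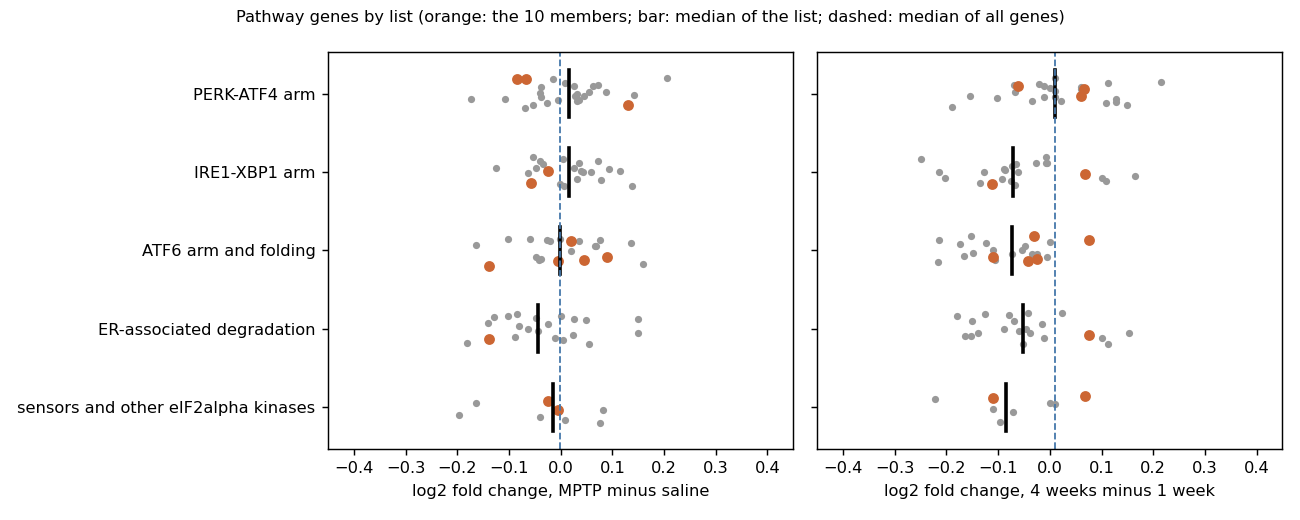
Each point is 1 gene of a pathway list (orange, the 10 genes; grey, others), placed by its log2 fold change for MPTP minus saline (left) and 4 weeks minus 1 week (right), 4 against 4 arrays each; bars are list medians and the dashed line the median of all genes. On the left the list medians lie between -0.04 and 0.02. On the right those of the folding and the IRE1 and XBP1 lists lie at -0.07, and that of the sensors and other eIF2alpha kinases at -0.08.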

How the data were processed

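RNA from whole mouse retina was read on 8 Affymetrix arrays, and log2 signals for 28944 probe sets were deposited by the authors, made with RMA in Affymetrix Expression Console per the submitters' processing notes. No source used here gives their versions, and scanner files were not used here. Of these probe sets, 21789 name 1 gene in the platform annotation, 1621 name several and 5534 have no entry. The probe set with the highest mean was kept for each of 19938 genes. Gene symbols are those of that annotation. Groups came from the sample labels.

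Linear models were fitted to all genes with limma 3.58.1 in R 4.3.3: 4 group means for the MPTP effect at each time, for how these effects differ and for the change over time, and treatment plus time for the effects over both. P-values are moderated, two-sided and corrected over all genes (Benjamini-Hochberg), with a threshold of 0.05. Intervals cover 95%. The number of arrays and the spread between them set the precision. The fits were tested on simulated data. Correlations used exact permutation in Python 3.11.15, with numpy 2.4.6, pandas 2.3.3 and matplotlib 3.10.9 for tables and figures.

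The genes and lists were chosen with earlier results of these data known. All 10 genes are named. From each pathway list the text names the 2 genes with the smallest unadjusted p for MPTP over both times and the 1 with the smallest at each time, and Eif2ak3. Genes named for the change over time were chosen after their values were seen. List genes that matched no probe set naming 1 gene, such as Eif2s1 and Kdelr2, were not analysed here. Alternatives were quantile, cyclic loess and median normalization, no dim genes (mean signal at or below percentile 50), the mean of probe sets, a trended robust prior, only the groups compared, the replicate number as a block, and arrays left out singly or as the pair that stands apart.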

Additional observations from a re-analysis of the deposited data

How the results depend on the processing

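With 2 arrays in each group, the spread within a group is estimated from 4 residual degrees of freedom per gene, and without an array or 2 a lone array is assumed to vary like the others. Of 35 log2 fold changes of single genes, 19 kept their sign under every alternative run. Over all 577 values under alternatives 32 had the opposite sign, and none had an adjusted limma p under 0.05. Many of the 577 could not change sign. A gene's log2 fold change stays the same under the trended robust prior, only the groups compared, the replicate block, the mean of probe sets or no dim genes. Leaving out an array of the other time cannot alter an effect at a single time either. Both counts therefore make the signs look steadier than the runs that could change them do. The cause of these changes of sign was not tested. No gene on the array was called by limma in any comparison under any alternative, except 1 between 4 weeks and 1 week in MPTP, both without array 1 of MPTP at 1 week and without the 2 arrays that stand apart. Counts of genes at an unadjusted p under 0.05 are not given as a range over all runs. The run without dim genes tested fewer genes, and some runs leave a lone array in a group.

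The MPTP effect at 1 week turned to -0.015 after quantile and -0.018 after cyclic loess normalization for Hsp90b1, and to 0.00061 after median centring for Sdf2l1. Without the 2 arrays that stand apart it turned to 0.091 for Hspa5, -0.0047 for Hsp90b1, 0.075 for Herpud1 and 0.072 for Sdf2l1, and the median of the 10 genes moved to 0.034. Over both times Atf6 turned to 0.00027 after quantile normalization and 0.00083 without these arrays. The difference of effects of Hspa5 turned to -0.0024 without them. After median centring the 4-week median of the 10 genes was -0.035.

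Other medians of the 10 genes moved by more than the spread between arrays. For the difference of effects the median was 0.049 (quantile), 0.056 (cyclic loess), 0.0058 (median centring) and 0.0045 (without the 2 arrays). For time in saline it was -0.021, -0.023, -0.067 and -0.032 in the same order, for time in MPTP 0.074, 0.073, -0.016 and -0.044, and for time over both treatments 0.025, 0.022 and -0.055 after the normalizations.

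With each array left out in turn, the median ranged from -0.080 to 0.010 for MPTP at 1 week, -0.029 to 0.0045 at 4 weeks, -0.034 to 0.017 over both times and -0.031 to 0.067 for the difference. It ranged from -0.067 to -0.032 for time in saline, -0.044 to 0.023 in MPTP and -0.051 to 0.012 over both treatments. At 1 week the ranges crossed 0 for Trib3 (-0.28 to 0.031), Ern1 (-0.12 to 0.081), Atf6 (-0.037 to 0.15), Hspa5 (-0.22 to 0.12), Hsp90b1 (-0.021 to 0.056) and Sdf2l1 (-0.15 to 0.13). At 4 weeks they did for Trib3 (-0.094 to 0.074), Ern1 (-0.062 to 0.0035), Xbp1 (-0.11 to 0.0091) and Hspa5 (-0.031 to 0.21), and over both times for Trib3 (-0.12 to 0.0062), Ern1 (-0.066 to 0.015), Atf6 (-0.057 to 0.025) and Hspa5 (-0.043 to 0.10). The difference of effects of Hspa5 ranged from -0.029 to 0.31.

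Whether the replicate numbers of the labels pair the arrays was not settled. Between saline and MPTP the array 1 minus array 2 contrasts correlated at -0.38 across genes at 1 week and 0.12 at 4 weeks. At 1 week the 2 arrays that stand apart carry different numbers (array 2 of saline, array 1 of MPTP), so that value cannot decide it. With the replicate block 0 genes were called at 1 week and 0 at 4 weeks, with 713 and 304 at an unadjusted p under 0.05. With the numbers of MPTP at 1 week exchanged, an alternative chosen after seeing the data, 0 were called and 947 were at that p.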
